A study of Mus musculus with 4 samples.

Results

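Thioredoxin (Txn1), the 6 peroxiredoxins (Prdx1 to Prdx6), the superoxide dismutases Sod1 and Sod2, and catalase (Cat) are antioxidant enzymes and carriers that contain no selenocysteine. Their mRNA and their translation were measured in mouse blastocysts, at the RNA level by RNA-seq and at the ribosome level by Ribo-seq, which sequences the fragments that ribosomes protect (RPF). The 10 genes were chosen by name, as every gene symbol in the files that equals one of theirs, out of 20714 symbols listed in both assays. The embryos had C57BL/6J mothers of 4 weeks and PWK/PhJ fathers, although the strain label reads C57BL/6N x PWK. The mothers had been injected with the hormones PMSG and hCG to induce ovulation. The embryos were wild type and otherwise untreated. They were taken at the 8-cell stage and grown in KSOM medium in vitro, and lost the zona pellucida in acidic Tyrode's solution. Each assay had 2 replicate libraries of whole embryos, and nothing says that the replicates came from separate collections, so p-values measure only the spread between these libraries. In such bulk samples, fewer cells of a type and less RNA per cell cannot be told apart. Levels are FPKM, the fragments per 1000 bases of transcript (mRNA) or of coding sequence (RPF) and per 1000000 mapped fragments.

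These proteins act in sequence on reactive oxygen. Superoxide dismutases turn superoxide, a by-product of respiration, into hydrogen peroxide, and peroxiredoxins and catalase then break the peroxide down. A peroxiredoxin attacks peroxide with a peroxidatic cysteine, and thioredoxin restores the oxidized enzyme with a pair of redox cysteines, drawing its electrons from NADPH through thioredoxin reductase. Some glutathione peroxidases, such as Gpx1 and Gpx4, do related work with selenocysteine, which the ribosome inserts at an in-frame UGA codon.

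The catalytic cysteine codons of the peroxiredoxins and Txn1 differ from the selenocysteine codon of Gpx1, and they are shown here for that contrast. Each stretch is 30 bases of coding sequence of GENCODE vM1 on NCBIM37, the assembly of mm9, 5′ to 3′. Capitals mark the peroxidatic cysteine codon in the peroxiredoxins, both redox cysteine codons in Txn1, and the in-frame TGA that is read as selenocysteine in Gpx1.
Prdx1: cctcttgactttacttttgtgTGTcccacg
Prdx2: ccactggacttcacttttgttTGCcccacg
Prdx3: cctttggatttcacatttgtgTGTcctaca
Prdx4: ccactggatttcacctttgtgTGTccaact
Prdx5: cctggggcatttacacctggcTGTtctaag
Prdx6: ccacgggactttaccccagtgTGCaccaca
Txn1: gctacgtggTGTggacctTGCaaaatgatc
Gpx1: attgagaatgtcgcgtctctcTGAggcacc
The stretches lie at chr4:116364407-116364436 (plus strand) for Prdx1, chr8:87494361-87494390 (plus) for Prdx2, chr19:60946024-60947333 (minus, across an intron) for Prdx3, chrX:151766997-151769391 (minus, across an intron) for Prdx4, chr19:6982472-6982501 (minus) for Prdx5, chr1:163177493-163177522 (minus) for Prdx6, chr4:57964684-57964713 (minus) for Txn1 and chr9:108241761-108241790 (plus) for Gpx1. The first capital codon is number 52 in Prdx1, 51 in Prdx2, 109 in Prdx3, 127 in Prdx4, 96 in Prdx5, 47 in Prdx6 and 32 in Txn1. Of the 10 genes, 0 had an in-frame stop codon before the end of the coding sequence. All 20 selenoprotein genes with a coding sequence in that annotation, of 24 looked for, had one.

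The libraries were shallow in Ribo-seq. Low FPKM values fell on steps of whole fragments. The steps implied totals of 5464681 and 5189454 in RNA-seq against 533887 and 484645 in Ribo-seq (replicates 1 and 2). The RNA-seq totals are less certain. There 64.7% and 63.0% of low values lay within 0.1 of a whole fragment, against 83.8% and 82.2% in Ribo-seq (20% by chance). In a coding sequence of 1000 bases, 1 RPF was worth 2.34 and 2.58 FPKM, and a floor of 3 RPF was 7.03 and 7.74 FPKM. Spearman's correlation between replicates, across 20714 genes that are not independent, was 0.94 for mRNA and 0.898 for RPF. The 6 trophectoderm and the 6 inner cell mass markers were all present, and trophectoderm markers summed to 2792 to 3029 FPKM of mRNA and 5373 to 5833 of RPF. Inner cell mass markers summed to 154 and 67.0 FPKM of mRNA in replicates 1 and 2, further apart than the trophectoderm sums, and to 794 and 926 of RPF, and the part of this in the results was not tested. The defining markers of other cells were mostly listed at 0 in all 4 libraries, namely 6 of 8 for oocytes, 6 of 8 for cumulus and granulosa cells, 4 of 7 for erythroid cells, 3 of 6 for sperm and 5 of 6 for fibroblasts. Their summed levels reached 1.92, 3.83, 1.93, 33.7 and 17.1 FPKM in any library. The sperm value was Prm2 in Ribo-seq replicate 2. The fibroblast value was Pdgfra alone in Ribo-seq replicate 1, and Pdgfra also had 12.35 FPKM in Ribo-seq replicate 2.

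Txn1, the cytosolic thioredoxin that reduces peroxiredoxins, had the highest level of the 10 genes in every library. Its mRNA was 626 and 589 FPKM in RNA-seq replicates 1 and 2, and its RPF was 4186 and 3916 FPKM in the Ribo-seq replicates. The RPF values rested on 268 and 228 implied footprints, with exact Poisson intervals at the 95% level of 237 to 302 and 199 to 259. These intervals, here and below, cover counting error only. Replicates differed by 1.06-fold in mRNA and 1.07-fold in RPF. Among the 8327 genes tested, 98.1% and 98.0% had less mRNA and 99.2% and 99.1% less RPF than Txn1. It made up 32.6% and 33.4% of the summed mRNA FPKM of the 10 genes, and 54.3% and 52.7% of their summed RPF FPKM.

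Prdx1 to Prdx4, the typical peroxiredoxins that work as dimers with a second cysteine, spanned a wide range. Prdx1, a main cytosolic and nuclear form, had mRNA of 385 and 318 FPKM and RPF of 1193 and 1323 FPKM (255 and 256 footprints). Prdx2, the other cytosolic form, had mRNA of 90.5 and 97.1 FPKM and RPF of 147 and 212 FPKM (31.2 and 40.8 footprints). Every Prdx1 library was therefore above every Prdx2 library of the same assay, by 3.27-fold to 4.25-fold in mRNA and 6.24-fold to 8.10-fold in RPF within a replicate. Prdx3, the mitochondrial form, had mRNA of 62.7 and 71.6 FPKM and RPF of 121 and 72.2 FPKM. Its RPF replicates, on 37.1 footprints (interval 26.2 to 51.1) and 20.1 footprints (12.3 to 31.0), were 1.68-fold apart, the widest gap of the 10 genes, and their intervals overlapped. Prdx4, the form of the endoplasmic reticulum, had mRNA of 93.6 and 103 FPKM and RPF of 117 and 149 FPKM (39.1 and 45.0 footprints). The levels of Prdx2 and Prdx4 overlapped in mRNA, and those of Prdx3 and Prdx4 in RPF.

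Prdx5 and Prdx6 belong to other branches of the family. Prdx5, an atypical form found in mitochondria, peroxisomes and cytosol, had mRNA of 63.5 and 73.5 FPKM and RPF of 174 and 178 FPKM (40.2 and 37.2 footprints). Prdx6, which has a single catalytic cysteine and is reduced by glutathione rather than thioredoxin, had mRNA of 62.6 and 62.2 FPKM and RPF of 381 and 318 FPKM (96.4 and 73.2 footprints). The mRNA of Prdx6 was the lowest of the 6 peroxiredoxins, by 62.6 against 62.7 FPKM for Prdx3 in replicate 1, whereas its RPF was second to Prdx1 among them.

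The superoxide dismutases stood in a different order in the 2 assays. Sod1, the copper-zinc enzyme of the cytosol, had mRNA of 367 and 318 FPKM and RPF of 666 and 505 FPKM (94.0 and 64.7 footprints). Sod2, the manganese enzyme of the mitochondrial matrix, had mRNA of 158 and 120 FPKM and RPF of 699 and 741 FPKM (175 and 168 footprints). Sod1 was the higher in both RNA-seq libraries and Sod2 in both Ribo-seq libraries, so the replicate values did not overlap in either assay. The counting intervals of the RPF values did overlap, at 538 to 814 FPKM for Sod1 and 599 to 810 for Sod2 in replicate 1, and narrowly at 389 to 644 and 634 to 862 in replicate 2.

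Cat, the peroxisomal enzyme that splits hydrogen peroxide, was the lowest of the 10 genes in every library. Its mRNA was 14.3 and 12.8 FPKM and its RPF was 18.9 and 23.9 FPKM. The RPF values rested on 14.0 footprints (interval 7.65 to 23.5) and 16.0 footprints (9.15 to 26.0). Cat was an intermediate gene among the genes tested, with 64.1% and 61.2% of them below it in mRNA and 42.3% and 50.1% in RPF. For the other 9 genes, 80.2% or more of the tested genes lay below in RPF, except for Prdx3 in replicate 2 at 73.3%.

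The order of mean mRNA was Txn1, Prdx1, Sod1, Sod2, Prdx4, Prdx2, Prdx5, Prdx3, Prdx6 and Cat. Neighbours whose replicates overlapped were Prdx1 and Sod1, Prdx4 and Prdx2, and Prdx5 and Prdx3. The order of mean RPF as deposited was Txn1, Prdx1, Sod2, Sod1, Prdx6, Prdx2, Prdx5, Prdx4, Prdx3 and Cat, with overlaps between Prdx2 and Prdx5 and between Prdx4 and Prdx3. The steps at both ends were large, since Txn1 exceeded the next gene by 1.73-fold in mRNA and 3.22-fold in RPF, and Cat was below the next by 4.59-fold and 4.52-fold. These orders are descriptions of mean levels, and 2 libraries against 2 cannot give an exact two-sided permutation p below 0.333.

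**Figure D1:**
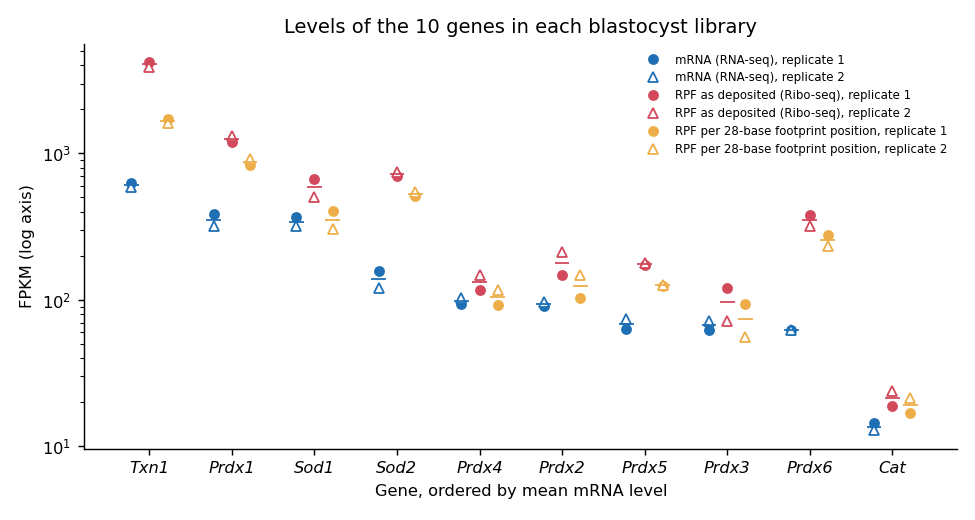
FPKM on a log axis of the 10 genes, ordered by mean mRNA, for each of the 2 RNA-seq libraries (mRNA) and the 2 Ribo-seq libraries (RPF as deposited, and RPF per 28-base footprint position). Points are libraries and short lines are means of 2. Txn1 is highest and Cat lowest in every library, and Sod2 lies below Sod1 in mRNA but above it in RPF.

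RPF was then set against mRNA for every gene, to ask which mRNAs had more or fewer ribosome footprints relative to their level than the median gene. The difference of log2(FPKM+1) was taken over all 4 libraries with limma and centred on the median of 8327 genes whose mean reached 1 FPKM in each assay, a median that stood 1.26 above 0 before centring. The 2 assays were scaled separately, so only differences relative to that median are given. A gene was called at an adjusted p under 0.05 and a centred difference of at least 1 in either direction. Of the 10 genes, 1 was called higher in RPF (Txn1) and 0 lower, where 9.13% of all genes were called higher and 3.24% lower. At an unadjusted p under 0.05, 4 of the 10 genes passed, near the 35.9% of all genes that did. The median difference of the 10 genes was -0.13, against 0 for all genes.

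Txn1 had a centred difference of 1.47 (SE 0.24, 95% interval 0.82 to 2.13, adjusted p = 0.0395). Over 12 alternatives its difference ran from 0.44 to 2.73 and its adjusted p from 0.00571 to 0.318, and it was called in 6 of them. The call was lost without RNA-seq replicate 1 (1.54, adjusted p = 0.308) or replicate 2 (1.43, adjusted p = 0.318). It was also lost with RPF counted per footprint position, as given below.

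Prdx6 and Sod2 had the next highest differences, neither called. Prdx6 had 1.20 (SE 0.25, interval 0.51 to 1.89, adjusted p = 0.0566) and Sod2 had 1.12 (SE 0.27, interval 0.37 to 1.87, adjusted p = 0.0725). With a filter at a mean of 5 FPKM in both assays, which left 5083 genes, both were called (adjusted p = 0.0291 and 0.0414), where 15.5% of genes were called higher. Over the 12 alternatives the adjusted p ran from 0.00653 to 0.347 for Prdx6 and from 0.00728 to 0.385 for Sod2. Without Ribo-seq replicate 2 Prdx6 was called (1.17, adjusted p = 0.0342, where 16.2% of genes were called higher) and Sod2 was not (0.92, adjusted p = 0.082).

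Prdx1 and Prdx5 lay near or above the median gene, with 0.58 (interval -0.13 to 1.30) and 0.09 (interval -0.59 to 0.77). Prdx1 was called with no filter (1.01, adjusted p = 0.0376, where 14.9% of 13402 genes were called higher) but stood at -0.08 with quantile normalization (adjusted p = 0.848), and its adjusted p over the alternatives ran from 0.00971 to 0.848. The remaining 5 genes had values below the median gene. Prdx2 had -0.35, Sod1 -0.50, Cat -0.65, Prdx3 -0.78 and Prdx4 -0.84, with adjusted p from 0.113 for Prdx4 to 0.447 for Prdx2. Each of these intervals included 0 except that of Prdx4, from -1.57 to -0.10. Prdx3 was called lower without Ribo-seq replicate 1 (-1.24, adjusted p = 0.0299, range over the alternatives 0.0299 to 0.563). Prdx4 was called lower without Ribo-seq replicate 2 (-1.16, adjusted p = 0.0364, range 0.0364 to 0.45). These fits, and the gain of Prdx6 above, leave a lone Ribo-seq library whose spread is taken from the RNA-seq pair, and they called 16.2% and 15.7% of genes lower (without Ribo-seq replicate 1 and 2) against 3.24% with all libraries, so the gained calls of Prdx3, Prdx4 and Prdx6 have no replicate check in RPF. Without centring all 10 genes had a difference above 0 and 5 were called, where 49.4% of all genes were called higher and the median gene itself stood at 1.26.

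**Figure D2:**
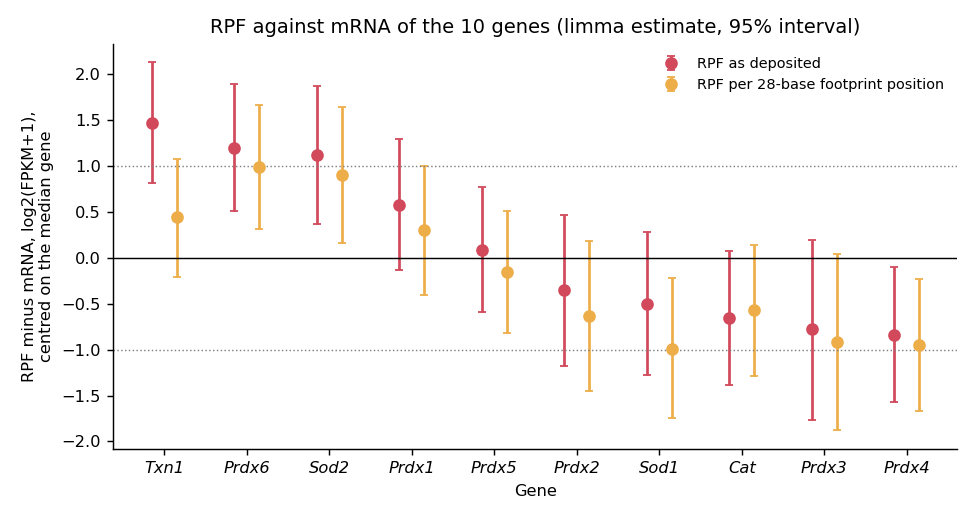
RPF minus mRNA on the log2(FPKM+1) scale, centred on the median gene, for each of the 10 genes, with RPF as deposited and per 28-base footprint position. Points are limma estimates from 2 libraries against 2 and bars are 95% intervals. The deposited values run from 1.47 for Txn1 to -0.84 for Prdx4, and the Txn1 estimate falls to 0.44 per footprint position.

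The coding length of these genes touched the RPF values. The deposited RPF FPKM fitted whole fragments when coding length was shortened by the fragment lengths that Cufflinks assumes by default (200 bases on average, SD 80). With that effective length 83.8% and 82.2% of low values in the 2 Ribo-seq libraries were within 0.1 of a whole fragment, against at most 44.0% and 41.8% when a coding sequence was given its number of 28-base footprint positions (20% is given by chance). A short coding sequence thus has a higher FPKM for the same footprints. Txn1 has only 318 coding bases, fewer than all but 2.3% of the tested genes with a coding length, so its 291 footprint positions stood against an effective length of 120 bases, a ratio of 2.42. The ratio was 1.66 for Sod1, 1.28 to 1.44 for Sod2 and the 6 peroxiredoxins, and 1.13 for Cat, and it was 1.16 for the median tested gene.

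RPF was therefore also expressed per footprint position. Txn1 then had 1726 and 1615 FPKM, which made 41.3% and 39.5% of the sum of the 10 genes, and it stayed the highest of them in both libraries. Its centred difference was 0.44 (SE 0.24, interval -0.21 to 1.08, adjusted p = 0.262), and 0 of the 10 genes were called, where 9.22% of 7393 genes were called higher. Prdx6 had 0.99 and Sod2 0.90 (adjusted p = 0.0711 and 0.0951), Sod1 moved from -0.50 to -0.99 (adjusted p = 0.087), and Prdx5 moved from 0.09 to -0.15. The neighbours Prdx5, Prdx2, Prdx4 and Prdx3 each overlapped the next in the order per position.

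Across all genes the calls moved with coding length in the same way. Of 402 genes with up to 400 coding bases, 31.6% were called higher in RPF as deposited and 17.0% per footprint position. Of 3063 genes with over 1500 bases, the shares were 5.1% and 7.7%. The median difference of the short genes was 0.83 as deposited and -0.32 per position, so the short class to which Txn1 belongs changed sign.

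**Figure D3:**
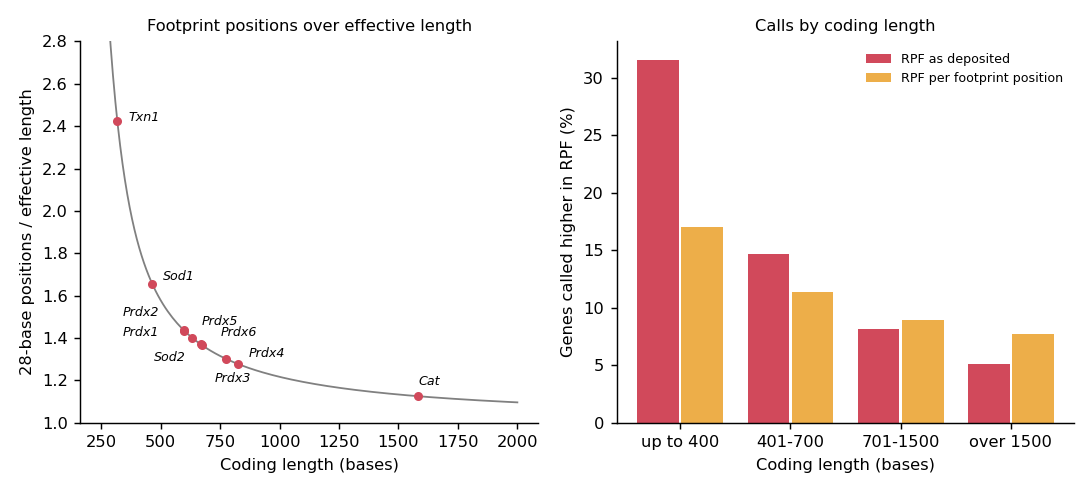
Left, the number of 28-base footprint positions over the default effective length against coding length in bases, as a curve with the 10 genes as points; Txn1 stands at 2.42 and Cat at 1.13. Right, the percent of tested genes called higher in RPF in 4 classes of coding length, as deposited and per footprint position; the bars fall from 31.6% to 5.1% as deposited and from 17.0% to 7.7% per position.

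Ratios between pairs of the 10 genes within a library do not depend on the overall scale of an assay. The pairs were chosen after the values were seen, so the ratios are descriptions with no test. Sod2 over Sod1 was 0.429 and 0.378 in mRNA, 1.05 and 1.47 in RPF as deposited, and 1.27 and 1.78 per footprint position. The ratio was thus above 1 in both Ribo-seq libraries on both scales, though in replicate 1 by 1.05-fold as deposited, within counting error. On the log2 scale the mean ratio was 1.62 higher in RPF than in mRNA as deposited and 1.90 higher per position. Prdx1 over Prdx2 was 4.25 and 3.27 in mRNA and 8.10 and 6.24 in RPF, and 8.12 and 6.25 per position. Prdx6 over Prdx5 was 0.986 and 0.846 in mRNA, 2.19 and 1.79 in RPF, and 2.24 and 1.84 per position. In each of these pairs the RNA-seq and the Ribo-seq ratios did not overlap.

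Between the mitochondrial enzymes, Sod2 over Prdx3 was 2.52 and 1.68 in mRNA and 5.77 and 10.3 in RPF, with no overlap. Prdx3 over Prdx4 was 0.670 and 0.694 in mRNA and 1.03 and 0.486 in RPF, so the assays overlapped. Txn1 over Prdx1, the reductant over its most abundant peroxiredoxin, was 1.63 and 1.86 in mRNA and 3.51 and 2.96 in RPF as deposited. Per footprint position it was 2.08 and 1.75, which overlapped the mRNA ratios, and the log2 difference between assays moved from 0.89 to 0.13.

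**Figure D4:**
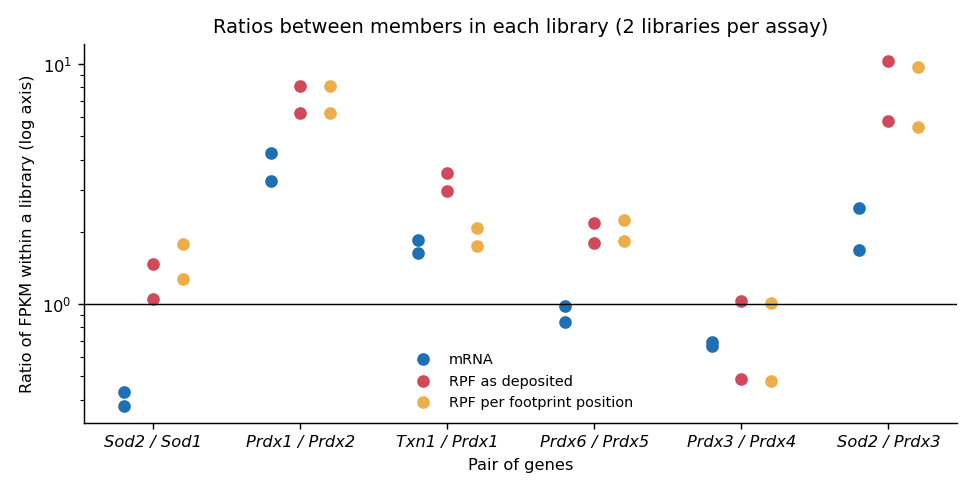
Ratio of the FPKM of one gene to another within each library, on a log axis, for 6 pairs; each point is 1 of 2 libraries per assay, for mRNA, RPF as deposited and RPF per footprint position. Sod2 over Sod1 lies below 1 in both RNA-seq libraries and above 1 in both Ribo-seq libraries, and the Txn1 over Prdx1 ratios of mRNA and of RPF per position overlap.

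Some of these genes share sequence with other places in the genome. Of the 28-base windows of the coding sequence, 54.3% of those of Sod1, 54.1% of Prdx1, 42.6% of Prdx2, 28.5% of Txn1 and 13.7% of Prdx6 were found elsewhere in the genome, 0 of them in more than 20 places, the limit of the mapping. The share was 1.4% for Prdx4, 0.1% for Prdx3 and 0% for Prdx5, Sod2 and Cat. For Prdx1, 283 windows were in the coding gene Gm7204, and for Prdx6, 70 were in Prdx6b. The reads were mapped to the transcriptome, and how reads of such windows were divided was not tested. For Sod1, Prdx2 and Txn1, 0 windows were in another coding gene. The levels of Sod1, Prdx1, Prdx2, Txn1 and Prdx6 may be affected by shared reads, by an amount that was not measured. Prdx2 shares 154 transcript bases with Rnaseh2a, and Prdx5 shares 360 with Trmt112, both on the opposite strand and outside coding sequence. Strand was not given for the counting in the sources used here, so mRNA reads from these bases cannot be assigned to 1 gene of the pair.

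The chosen genes lie on several chromosomes of NCBIM37. Txn1 (chr4:57956245-57969283, minus strand, 5 coding exons) and Prdx1 (chr4:116358149-116373427, plus, 5) share a chromosome, as do Prdx3 (chr19:60939954-60950459, minus, 7) and Prdx5 (chr19:6981187-6984596, minus, 6). The others are Prdx2 (chr8:87493486-87498733, plus, 5 coding exons), Prdx4 (chrX:151758461-151775297, minus, 7), Prdx6 (chr1:163170243-163181350, minus, 5), Sod1 (chr16:90220987-90226567, plus, 5), Sod2 (chr17:13200705-13210985, plus, 5) and Cat (chr2:103294006-103325317, minus, 13). Coding length ran from 318 bases in Txn1 and 465 in Sod1 to 825 in Prdx4 and 1584 in Cat.

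The partners of these enzymes were read from the same comparison, by lists of pathway genes. Of 17 tested genes among 21 thioredoxin and peroxiredoxin partners, 4 were called higher in RPF and 0 lower, with a median of 0.85. Txnl4a, a thioredoxin-fold protein that belongs to the spliceosome, had mRNA of 71.3 and 85.9 FPKM and RPF of 1181 and 1248 FPKM, a difference of 2.68 (SE 0.25, adjusted p = 0.0196). Per footprint position it had 2.10. Msrb1, a selenoprotein that repairs oxidized methionine, had mRNA of 7.59 and 3.33 FPKM and RPF of 88.5 and 139 FPKM, a difference of 2.94 (SE 0.48, adjusted p = 0.040). Its call was lost with a pseudocount of 0.1 (adjusted p = 0.065, range over 11 alternatives 0.00725 to 0.306), and no per-position value was computed for it.

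The glutathione system had 1 gene called higher and 1 lower of 19 tested, with a median of -0.61. The higher was Glrx3, a glutaredoxin of iron-sulfur handling, with a difference of 2.5 (SE 0.29, adjusted p = 0.0245). The lower was Gpx4, the selenoprotein that reduces lipid peroxides, with mRNA of 560 and 631 FPKM and RPF of 380 and 392 FPKM. Its difference was -1.88 (SE 0.24, adjusted p = 0.0276). With no centring it was -0.62 (adjusted p = 0.0995), and Gpx4 was not called. The mRNA of Gpx4 thus overlapped that of Txn1, while its RPF was below that of Prdx1, Sod1 and Sod2 in both libraries. The selenoproteins, which share Gpx4 and Msrb1 with the lists above, had 3 called higher and 1 lower of 18 tested, with a median of -0.04, and a further gene called higher was Selenot, of the endoplasmic reticulum, at 2.32 (SE 0.24, adjusted p = 0.0228), also without a per-position value.

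Of the NRF2 and KEAP1 axis, which controls antioxidant genes, 2 of 12 tested genes were called higher and 0 lower. These were Nfe2l1, a transcription factor related to NRF2, at 1.75 (SE 0.29, adjusted p = 0.0418) and Rbx1, the RING subunit of cullin ligases, at 1.64 (SE 0.29, adjusted p = 0.0447). The Nfe2l1 call was lost with a pseudocount of 0.1 (adjusted p = 0.0616, range over 11 alternatives 0.00636 to 0.308). Rbx1 has 369 coding bases, and per footprint position it had 0.87 (adjusted p = 0.116, range over 12 alternatives 0.0065 to 0.309) and was not called, nor was it with a pseudocount of 0.1 or quantile normalization. Of 14 genes of NADPH supply, 2 were called higher and 0 lower. Pgd, of the pentose phosphate pathway, had mRNA of 16.9 and 25.1 FPKM and RPF of 326 and 285 FPKM, a difference of 2.56 (SE 0.31, adjusted p = 0.0257). Tkt, transketolase of the same pathway, had 2.55 (SE 0.24, adjusted p = 0.0195).

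The list of superoxide and peroxide handling and sources had 0 genes called higher and 1 lower of 10 tested. That gene was Ucp2, a mitochondrial carrier, with mRNA of 12.0 and 21.3 FPKM and RPF of 2.57 and 2.84 FPKM, a difference of -3.46 (SE 0.36, adjusted p = 0.0228). Ucp2 has 930 coding bases, and 1 footprint in a coding sequence of 1000 bases was worth 2.34 and 2.58 FPKM. Its call thus rested on about 1 footprint per Ribo-seq library, below the floor of 3. Of 17 peroxisome genes, which serve the compartment of Cat, 1 was called higher and 1 lower, with a median of -0.37. The higher was Pex10, a peroxisomal import factor, at 2.2 (SE 0.41, adjusted p = 0.048). The lower was Pxmp2, a peroxisomal membrane channel, at -2.68 (SE 0.26, adjusted p = 0.0202). The RPF of Pxmp2, which has 582 coding bases, was 9.88 and 10.9 FPKM. For Prdx2, of 597 coding bases, a floor of 3 footprints was 14.2 and 15.6 FPKM, so Pxmp2 lay below such a floor. Pex10 had mRNA of 1.38 and 2.25 FPKM, and its call was lost with a pseudocount of 0.1 (adjusted p = 0.065, range over 11 alternatives 0.00753 to 0.311). Each list stands beside the 9.13% and 3.24% of all genes called, and no list was tested as a set.

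**Figure D5:**
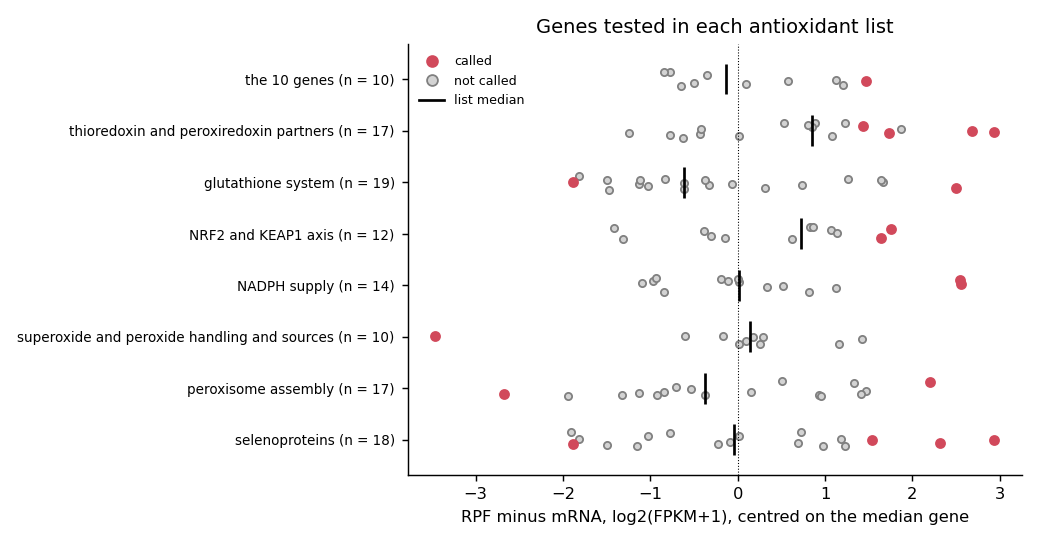
Centred RPF minus mRNA difference, on the log2(FPKM+1) scale, of each tested gene in the 10 genes and 7 pathway lists; filled points passed the test and bars are list medians. The medians run from -0.61 for the glutathione system to 0.85 for the thioredoxin and peroxiredoxin partners, and a gene may stand in more than 1 list.

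The genes most like the highest and the lowest of the 10 were found by Euclidean distance of log2(FPKM+1) over the 4 libraries. Nearest to Txn1 were Cox17, a copper chaperone of cytochrome oxidase (distance 0.219), Cops9, a subunit of the COP9 signalosome (0.395), and Rps24, a ribosomal protein (0.436). Cox17 had mRNA of 697 and 643 FPKM and RPF of 4145 and 4160 FPKM. It has 192 coding bases and Rps24 has 402, so these are short genes as Txn1 is. Nearest to Cat were Mat2b, a regulatory subunit of methionine adenosyltransferase (0.254), Gtf2h4, a subunit of a general transcription factor (0.264), and Trappc13, of a trafficking complex (0.274).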

How the data were processed

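RNA-seq (Smart-seq2) and Ribo-seq (Ribo-lite, with RNase I digestion and a sucrose cushion) of blastocysts were analysed, with 2 libraries each, grouped by the sample titles. The authors deposited FPKM values per gene, computed with Cufflinks 2.2.1 on mm9 transcripts for RNA-seq and on mm9 coding sequences for Ribo-seq. Before that they trimmed reads (Trim Galore 0.4.2 or cutadapt 1.14), removed rRNA reads in Ribo-seq (Bowtie2 2.2.2) and mapped with STAR 2.5.3a, allowing up to 20 places per read. FPKM hold no counts, so depth and footprints were inferred from the steps of low values.

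Each of the 10 genes had 1 line per file. Where another symbol was repeated, its highest value was used. Differences were fitted with limma 3.58.1 (R 4.3.3) on log2(FPKM+1), a scale that understates changes of low genes, for genes with a mean of at least 1 FPKM in both assays, with Benjamini-Hochberg adjustment over all of them. Footprint positions, coding lengths and windows came from GENCODE vM1 on NCBIM37, with Python 3.11.15. Simulated data were used to test the depth estimate, for Ribo-seq only, and the fit. Alternatives were a pseudocount of 0.1, no filter or a filter at 5 FPKM, quantile normalization, no centring, the replicate number as a block, summed repeated symbols, 28-base footprint positions, and each library left out.

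The 10 genes, the pathway lists and the marker lists were chosen with earlier results of these data known. From each pathway list the text names up to 2 of the largest and 2 of the smallest called differences, with a mean of at least 10 FPKM in the higher assay, and for the genes with the highest and lowest mRNA the 3 nearest genes.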

Additional observations from a re-analysis of the deposited data

How the results depend on the processing

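Calls were counted again under each alternative. Over all genes, 760 were called higher and 270 lower. The counts were 413 and 130 with a pseudocount of 0.1, 1997 and 1136 with no filter, 790 and 515 with a filter at 5 FPKM, 656 and 485 with quantile normalization, 4113 and 65 with no centring, and 0 to 1359 and 0 to 1287 with a library left out. The share of calls that were higher, 73.8%, was 63.7% with no filter, 60.5% at 5 FPKM, 57.5% with quantile normalization and 98.4% with no centring. Of the 10 genes, 1 was called higher and 0 lower. The higher count was 0 with a pseudocount of 0.1, quantile normalization or 28-base footprint positions, 4 with no filter, 3 at 5 FPKM, 5 with no centring, and 0 to 2 with a library left out, where the lower count was 0 to 1. Of the pathway genes, 12 were called higher and 3 lower. The counts were 5 higher with a pseudocount of 0.1, 27 and 8 with no filter, 8 lower at 5 FPKM, 9 lower with quantile normalization, 55 higher with no centring, 7 lower with 28-base positions, and 0 to 23 and 0 to 16 with a library left out.

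The replicate number as a block left 27 genes higher and 1 lower (96.4% higher), 0 of the 10 genes, and 0 and 0 pathway genes. The deviations of libraries with the same number correlated at 0.01 over 8327 genes. With only 2 pairs and shallow Ribo-seq, that value cannot tell whether libraries of the same number belong together. Without RNA-seq replicate 1 or 2, limma called 0 genes, with 1317 and 1260 at an unadjusted p under 0.05, and the lone library of an assay, in these fits and in those without a Ribo-seq replicate, was assumed to vary like the other assay's pair. The same 12 named pathway genes lost their calls under the block and without either RNA-seq replicate.

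Directions turned for Prdx1 with quantile normalization (-0.08), for Prdx2 with no filter (0.07), and for Prdx5 with a pseudocount of 0.1 (-0.03), quantile normalization (-0.35), 28-base positions (-0.15) and without Ribo-seq replicate 2 (-0.08, with -0.08 to 0.19 over the libraries left out). With no centring, Prdx2 (0.91), Prdx3 (0.48), Prdx4 (0.42), Sod1 (0.76) and Cat (0.61) turned above 0, by the median shift of 1.26. Summed repeated symbols changed no call of the 10 genes. The cause of the other changes was not tested. The Ribo-seq depth limits Cat and Prdx3 most, at 14.0 to 16.0 and 20.1 to 37.1 footprints.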
